A study of Rattus norvegicus with 14 samples.

Results

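The genes described here encode apolipoproteins, the proteins that coat and steer lipoprotein particles. They were chosen by name, as all probes whose gene symbol in the platform annotation is Apo, a letter from a to h and at most 1 digit. The rule found 13 probes for 10 genes, Apoa1, Apoa2, Apoa4, Apoa5, Apob, Apoc1, Apoc3, Apod, Apoe and Apoh, among 4952 probes and 4156 genes with a symbol. Apob had 3 probes, Apoa2 had 2 and the others had 1.

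RNA came from the small intestine of rats aged 20 days, perfused with HG or with HF. The labels do not spell these out, and they are read as high glucose and high fructose, as the study is known to use. Each array had 2 channels and gives the ratio of their RNAs. At 4 h of perfusion 5 arrays set HG pair by pair against HF (1HG with 1HF and so on to 5), 1 more array repeated pair 2, and at 20 min 4 arrays did the same for pairs (1) to (4). Another 3 arrays carried the same RNA of 4 h in both channels (1HG, 3HG and 3HF), and 1 array carried capture primers in both channels. The same-RNA arrays reuse RNAs of pairs 1 and 3, no array is labelled as unperfused intestine, and the labels do not say whether pairs came from separate animals, so the p-values speak only of the spread among arrays. A ratio gives no level, so neither the abundance of a gene nor its presence in the tissue could be read from these values.

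The base of the logarithm is taken to be 2. No source used here gives the direction of the ratio. HF is likely the side of positive values, because Slc2a5, the fructose transporter gene that fructose is known to induce, lay between 1.33 and 1.95 on the 5 arrays at 4 h and between -0.17 and 0.16 on the same-RNA arrays. If the direction is the opposite, every sign below turns and no size or test changes. The SD of a ratio over all probes was between 0.334 and 0.401 on the arrays that set HG against HF, other than the second array of pair 2 (0.824), and 1.39 on the same-RNA array 1HG. The small number of arrays limits the precision, and the arrays differ in their spread.

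In the small intestine, enterocytes pack absorbed fat into chylomicrons, each built around a single Apob protein, and release them into lymph. Apoa1, the main protein of high density lipoprotein and an activator of the enzyme that esterifies plasma cholesterol, and Apoa4, which enterocytes release with fat, join the particle in the cell. Apoc3 slows the removal of triglyceride-rich particles by restraining lipoprotein lipase, and Apoa5 speeds it. Apoe is a ligand for lipoprotein receptors, Apoc1 is carried on lipoproteins, and Apoa2 is a protein of high density lipoprotein. Apod is a lipocalin that carries small lipophilic molecules, and Apoh binds phospholipids and is known mainly from liver and plasma.

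In RefSeq's gene table for GRCr8, Apoa1, Apoc3, Apoa4 and Apoa5 stand side by side on chromosome 8, in that order, with 0 other listed genes between neighbours. On chromosome 1 it lists Apoc1 next to Apoe. Of the 13 rat genes in that table whose symbols match the rule, 3 (Apoc2, Apoc4 and Apof) had no probe named on the array. RefSeq promoter windows were given for 6 of the 10 genes. The 250 bases before a start are shown for Apoa4 and Apoa5, the neighbours of Apoa1 and Apoc3 with such a window, since the values of these 4 genes are set side by side below. Apoa4 lies at chr8:55435529-55435778 and the earlier of 2 Apoa5 windows at chr8:55457621-55457870 in GRCr8, both on the plus strand, and capitals mark motifs searched.
Apoa4: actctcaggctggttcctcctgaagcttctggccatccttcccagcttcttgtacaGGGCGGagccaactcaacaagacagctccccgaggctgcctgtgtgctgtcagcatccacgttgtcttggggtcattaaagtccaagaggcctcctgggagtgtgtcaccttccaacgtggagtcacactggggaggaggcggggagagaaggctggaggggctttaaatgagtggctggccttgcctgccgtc
Apoa5: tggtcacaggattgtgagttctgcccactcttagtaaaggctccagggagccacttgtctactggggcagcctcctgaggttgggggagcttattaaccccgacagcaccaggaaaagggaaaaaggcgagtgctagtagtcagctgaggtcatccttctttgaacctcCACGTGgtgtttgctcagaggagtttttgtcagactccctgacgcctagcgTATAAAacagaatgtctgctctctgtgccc

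In Apoa4 the capitals are GGGCGG (the GC box), whose first base is at -194 from the start. In Apoa5 they are CACGTG (the E box) at -81 and TATAAA (the TATA box) at -30. On both strands, GGGCGG was in 30.5% of all 33469 windows of this length, CACGTG in 5.59% and TATAAA in 12.9%. CCAAT was in neither window and in 34.0% of all. CAAAGTCCA, a motif bound by HNF4 (0.338% of all windows), and TGACCTTTG, part of a nuclear receptor site (0.376%), were in 0 of the 10 windows of the 6 genes. Only exact matches were counted, and strings this rare would seldom be in 10 windows, so their absence says little about these genes. None of the motifs overlapped another in these 2 windows, and a match is a string of letters, not a shown site.

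The first comparison asked how the ratio of HF to HG at 4 h stood against that of the same-RNA arrays, which carry the dye effect of each probe. Of the 10 genes, 8 lay below 0 and 2 above, with a median difference of -0.17, beside -0.01 over all 4682 features tested, of which 51.5% lay below 0. None of the 10 passed limma's test at an adjusted p below 0.05, which 3 features (0.0641%) did. At an unadjusted p below 0.05 were 2 of the 10, Apoa1 and Apoc3, beside 467 features (9.97%). In the same 2 genes all arrays at 4 h lay outside the range of the same-RNA arrays, as in 6.71% of all features.

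Apoc3 had ratios of -1.43, -0.58, -1.20, -0.46 and -1.35 on arrays 1 to 5 at 4 h and of -0.18, 0.00 and -0.15 on the same-RNA arrays 1HG, 3HG and 3HF. All 5 arrays at 4 h lay below all 3 same-RNA arrays, and arrays 2 and 4 lay nearest to them. The mean at 4 h was -1.0 ± 0.45 (SD, n = 5), and the difference from the same-RNA arrays was -0.89 ± 0.22 (SE; 1.86-fold towards HG; 95% confidence interval -1.37 to -0.42). It did not pass over all features (limma adjusted p = 0.214).

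Apoa1 had ratios of -0.32, -0.37, -0.65, -0.85 and -0.51 at 4 h and of 0.18, -0.02 and 0.01 on the same-RNA arrays. Here too the groups did not overlap, but array 4, on which Apoc3 was nearest to 0, gave the lowest value. The mean was -0.54 ± 0.22 (SD, n = 5), and the difference was -0.59 ± 0.12 (SE; 1.51-fold towards HG; interval -0.86 to -0.33; adjusted p = 0.155). By p it stood at rank 12 among the 4682 features and Apoc3 at rank 29.

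Apoa4 had ratios of -0.75, -0.73, -0.27, -0.38 and -0.16 at 4 h, all below 0, with the lowest on arrays 1 and 2. Its same-RNA arrays were below 0 as well, at -0.18, -0.14 and -0.29, so the groups overlapped. The difference was -0.26 ± 0.15 (SE; interval -0.58 to 0.06; adjusted p = 0.512), less than the mean ratio of -0.46 ± 0.27 (SD, n = 5) alone would give.

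Apoa5, the last of the row on chromosome 8, had ratios of -0.56, -0.03, -0.27, 0.15 and 0.01 at 4 h, on both sides of 0, and between -0.03 and 0.08 on the same-RNA arrays. Its difference was -0.16 ± 0.17 (SE; interval -0.54 to 0.21; adjusted p = 0.765), which does not tell it apart from 0. The 4 neighbours thus had means at 4 h of -0.54, -1.0, -0.46 and -0.14 in their order along the chromosome. The differences among these genes were not tested.

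**Figure D1:**
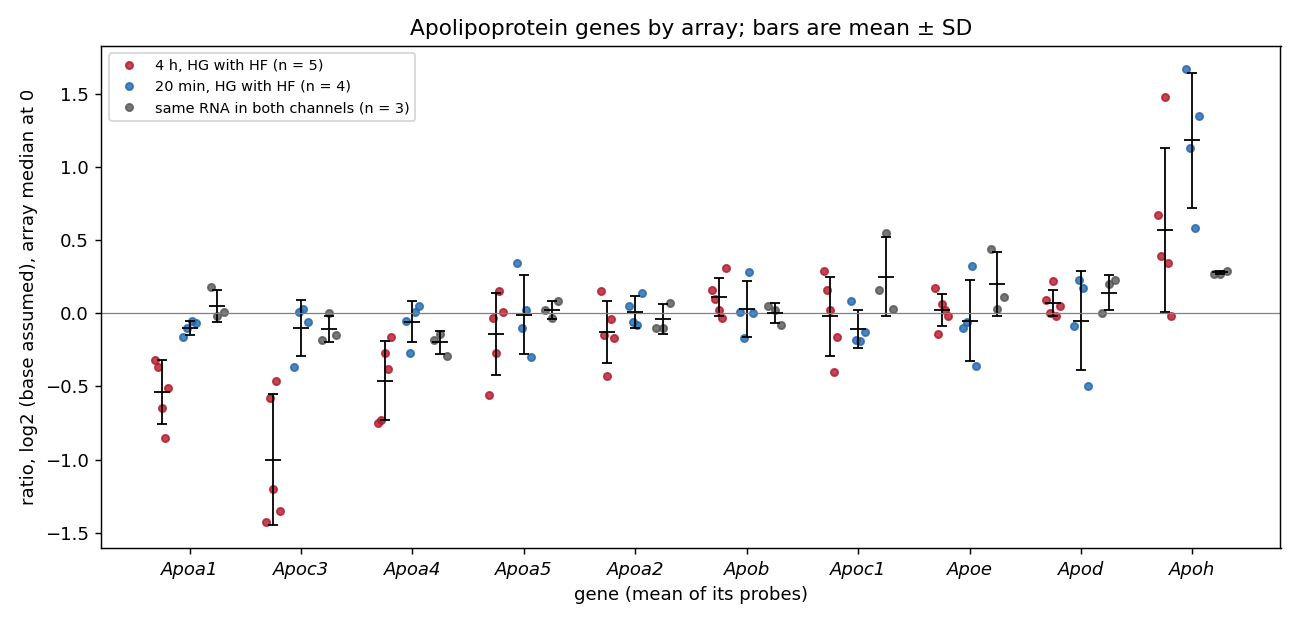
Ratio of each apolipoprotein gene on the log2 scale (base assumed), with 1 point per array for 4 h (n = 5), 20 min (n = 4) and the same RNA in both channels (n = 3); black bars are mean ± SD. Apoc3 and Apoa1 at 4 h lie below their other arrays, with means of -1.0 and -0.54, and Apoh at 20 min lies highest, with a mean of 1.18.

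Apob, the structural protein of the chylomicron, had a difference of 0.12 ± 0.11 (SE; interval -0.14 to 0.37; adjusted p = 0.75) as the mean of 3 probes, and these did not run together. Probe 3810 had ratios of 0.42, 0.25, -0.07, 0.30 and 0.67 at 4 h and of -0.05, -0.26 and 0.00 on the same-RNA arrays. Its groups overlapped on array 3 alone, and its own difference was 0.42 ± 0.18 (SE; adjusted p = 0.469). Probe 3388 had ratios of -0.17, -0.54, -0.03, -0.48 and 0.11, mostly below 0, with a difference of -0.23 ± 0.23 (SE; adjusted p = 0.755). Probe 1333 had ratios of 0.21, 0.60, 0.15, 0.08 and 0.16, all above 0, with a difference of 0.15 ± 0.11 (SE; adjusted p = 0.641). The sign for Apob therefore depended on the probe.

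**Figure D2:**
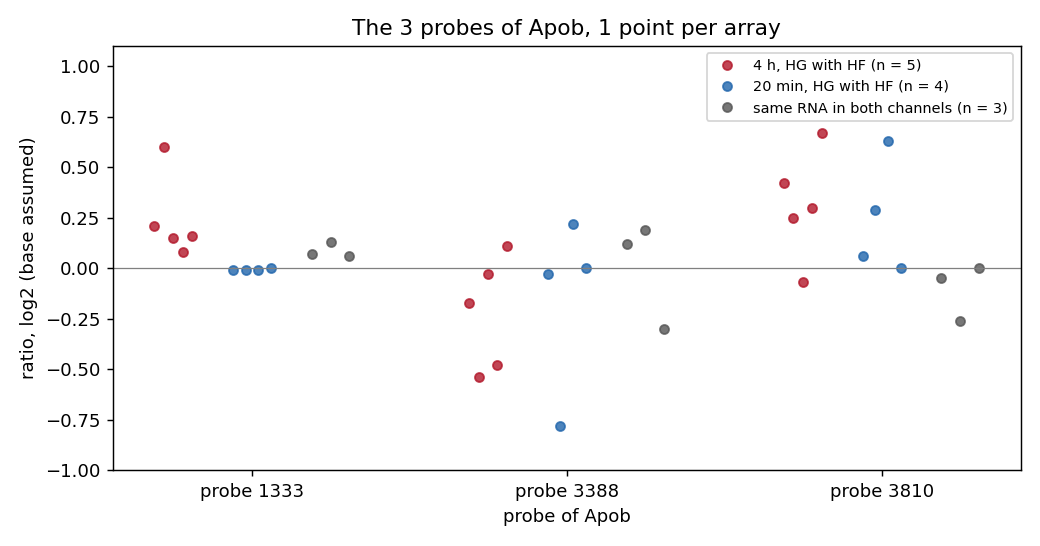
Ratio on the log2 scale (base assumed) of the 3 probes of Apob, 1 point per array, for 4 h (n = 5), 20 min (n = 4) and the same RNA in both channels (n = 3). At 4 h probe 1333 lies above 0 on all 5 arrays and probe 3388 below 0 on 4, and at 20 min the 4 values of probe 1333 lie together at 0.

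Among the other genes, Apoc1 had ratios of 0.29, 0.16, 0.02, -0.40 and -0.16 at 4 h and of 0.16, 0.55 and 0.03 on the same-RNA arrays, and its difference of -0.27 ± 0.16 (SE; adjusted p = 0.545) came from a positive control mean of 0.25 ± 0.27 (SD, n = 3) rather than from its own mean of -0.02. Apoe lay between -0.14 and 0.17 at 4 h, with a difference of -0.18 ± 0.15 (adjusted p = 0.68), which was -0.05 without the same-RNA array 1HG. Apod lay between -0.02 and 0.22, the narrowest spread of the 10 at 4 h (SD 0.09), with a difference of -0.08 ± 0.15 (adjusted p = 0.878). Apoa2 lay between -0.43 and 0.15, with a difference of -0.09 ± 0.12 (adjusted p = 0.836). Of its 2 probes, probe 2375 differed by -0.001 ± 0.11 (SE) and probe 2529 by -0.17 ± 0.19. Probe 2529 has a gene identifier that the rat gene table does not hold. The intervals of all 4 genes span 0 and reach no lower than -0.63 (Apoc1).

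Apoh had ratios of 0.67, 0.39, 1.48, 0.34 and -0.02 at 4 h, the widest spread of the 10 (SD 0.56). Its same-RNA arrays lay close together, at 0.27, 0.27 and 0.29, so part of its positive ratio appears with no difference in RNA. The difference was 0.30 ± 0.30 (SE; interval -0.36 to 0.95; adjusted p = 0.756), and without array 3 it was 0.07.

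In order of their mean at 4 h, Apoc3 was lowest, followed by Apoa1, Apoa4, Apoa5, Apoa2 (-0.13), Apoc1, Apoe (0.02), Apod (0.07), Apob (0.11) and Apoh (0.57). The gap between neighbours in this order was smaller than the SD of both, except between Apoc3 and Apoa1 (0.46), Apoa4 and Apoa5 (0.32) and Apob and Apoh (0.46). At 20 min the other 9 genes lay between -0.11 (Apoc1) and 0.03 (Apob), with no gap beyond 0.04, and Apoh lay 1.15 above them. Since each probe has its own dye effect, the order is of ratios and not of levels.

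The next comparison asked the same after 20 min of perfusion. The mean ratios of the genes of chromosome 8 lay between -0.10 and -0.01, with single arrays between -0.37 and 0.34. The 10 genes had a median difference of -0.01 from the same-RNA arrays, beside 0.00 over all features, with 5 below 0 and 5 above, and 0 passed limma's test, beside 2 features (0.0427%). At an unadjusted p below 0.05 was 1 of the 10, Apoh, beside 244 features (5.21%). The groups did not overlap in 2, Apoh and Apoa1, as in 7.01% of features.

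Apoh had ratios of 1.67, 1.13, 0.58 and 1.35 on the 4 arrays at 20 min, each above all 3 same-RNA arrays, with replicate 3 lowest. The mean was 1.18 ± 0.46 (SD, n = 4), and the difference was 0.90 ± 0.31 (SE; 1.87-fold towards HF; interval 0.22 to 1.59; adjusted p = 0.801). The control RNA is of 4 h, so a ratio at 20 min is set against RNA of another time.

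Apoa1 had ratios of -0.16, -0.10, -0.05 and -0.07 at 20 min, all below 0 and all below the same-RNA arrays, with a spread (SD 0.05) less than the 0.22 at 4 h. The difference was -0.15 ± 0.13 (SE; interval -0.43 to 0.13; adjusted p = 0.915). Apoc3 had ratios of -0.37, 0.01, 0.03 and -0.06, with replicate 1 apart from the other 3, and a difference of 0.01 ± 0.23 (interval -0.48 to 0.51; adjusted p = 0.998). Apoa4 had ratios of -0.05, -0.27, 0.01 and 0.05, with a difference of 0.14 ± 0.15 (adjusted p = 0.952). Apoa5 lay between -0.30 and 0.34, with a difference of -0.03 ± 0.18 (adjusted p = 0.992).

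Apoc1 had ratios of 0.08, -0.18, -0.19 and -0.13 and a difference of -0.35 ± 0.17 (SE; interval -0.73 to 0.02; adjusted p = 0.801). Apoe (between -0.36 and 0.32), Apod (between -0.50 and 0.23), Apoa2 (between -0.08 and 0.14) and Apob (between -0.17 and 0.28) lay on both sides of 0, with adjusted p between 0.825 and 0.992. For both Apoe and Apod replicate 4 was the lowest array. Probe 1333 of Apob was deposited as exactly 0 on all 4 arrays at 20 min, as were 16 other probes of the array, and probe 3810 as exactly 0 on replicate 4. Exact zeros numbered 37 to 123 on the arrays at 20 min and 0 on every other array. They may not be measurements, and with them taken as missing the difference of Apob was 0.05 in place of 0.03. The fit shares its estimate of spread over the groups, so they also touch Apob at 4 h. There its SE was 0.14 in place of 0.11 with them taken as missing (limma adjusted p = 0.809).

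**Figure D3:**
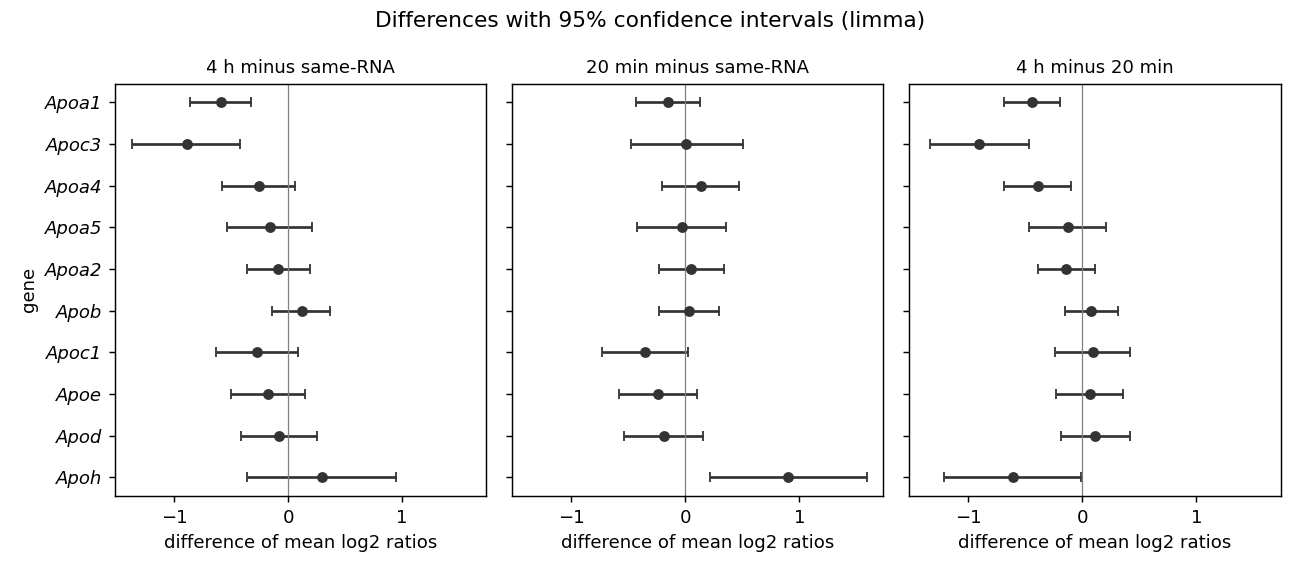
Difference of mean log2 ratios (base assumed) for each gene in the 3 comparisons, with 95% confidence intervals from limma. The intervals of Apoa1 and Apoc3 lie below 0 at 4 h (-0.86 to -0.33 and -1.37 to -0.42) and that of Apoh above 0 at 20 min (0.22 to 1.59), and 0 of the 10 genes passed the test over all features in any of the 3.

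The third comparison set the ratio at 4 h directly against that at 20 min, in which the dye effect of a probe drops out if it was alike on both sets. It uses the same arrays as the comparisons above and is no separate evidence. Here 4 of the 10 genes had an unadjusted p below 0.05, Apoc3, Apoa1, Apoa4 and Apoh, all with a lower ratio at 4 h, beside 633 features (13.5%). None of the 10 passed at an adjusted p below 0.05, beside 28 features (0.598%). The median over the 10 was -0.14, with 6 below 0 and 4 above, beside -0.01 over all features. No array at 4 h reached the range at 20 min in 2 genes, Apoc3 and Apoa1, as in 6.54% of features in either direction.

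Apoc3 differed by -0.91 ± 0.20 (SE; 1.88-fold; interval -1.34 to -0.47; adjusted p = 0.0801), with the highest array at 4 h at -0.46 and the lowest at 20 min at -0.37. In limma's test it passed without 4 h replicate 4 (-1.04, adjusted p = 0.0379) and without the same-RNA array 1HG (-0.91, adjusted p = 0.0386). Apoc3 passed in no other of 24 alternatives, over which the adjusted p reached 0.349. The same-RNA arrays enter this comparison only through the estimate of spread, which the fit shares over the 3 groups. Apoa1 differed by -0.44 ± 0.11 (SE; interval -0.69 to -0.20; adjusted p = 0.126), with the highest array at 4 h at -0.32 and the lowest at 20 min at -0.16. Apoa4 differed by -0.39 ± 0.13 (SE; interval -0.69 to -0.10; adjusted p = 0.217), and its groups overlapped, with -0.16 on array 5 at 4 h and -0.27 on replicate 2 at 20 min. Apoa5 differed by -0.13 ± 0.16 (adjusted p = 0.792).

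Apoh differed by -0.61 ± 0.28 (SE; interval -1.21 to -0.01; adjusted p = 0.362). Its arrays 1 and 3 at 4 h, at 0.67 and 1.48, lay within the range at 20 min (0.58 to 1.67), and the other 3 lay below it. The remaining 5 genes differed by between -0.14 (Apoa2) and 0.11 (Apod), with adjusted p between 0.656 and 0.907. For Apoa2, probe 2375 differed by 0.02 and probe 2529 by -0.30.

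The array that repeats pair 2 was left out of these tests, because its title marks HG with a 5 and HF with a 3, which may mean that the dyes were swapped, and the labels do not settle it. Across all features its ratios had a Pearson r of 0.408 with those of array 2, a positive value, over features that share both RNAs and their probes. Apoc3 was -0.58 on array 2 and 0.55 on the repeat. Apoa5 was -0.03 and 1.19, and Apoa1 was -0.37 and -0.03. Apoa4, with -0.73 and -0.51, kept its sign, as did Apoh with 0.39 and 0.85. With swapped dyes, the difference of both arrays divided by 2 would be the ratio of HF to HG of that pair, which comes to -0.61 for Apoa5, -0.57 for Apoc3, -0.23 for Apoh, -0.17 for Apoa1 and -0.11 for Apoa4. For Apoh this is the opposite sign to array 2 alone. The sum divided by 2 would be the dye effect, at 0.58, -0.02, 0.62, -0.20 and -0.62 in the same order. Entered as a swap in the fit at 4 h, a setting chosen after seeing the data, Apoc3 differed by -0.87 (adjusted p = 0.0252), Apoa1 by -0.44 (adjusted p = 0.0699), Apoa4 by -0.09 and Apoh by 0.10, with 61 features called in place of 3. Averaged into array 2 with its sign turned, it gave Apoc3 at -0.89 and Apoa1 at -0.55, both with an adjusted p of 0.292. Averaged in as deposited, it gave -0.78 (adjusted p = 0.608) and -0.56 (adjusted p = 0.55). Apoc3, not called at 4 h without this array (adjusted p = 0.214), was thus called in 1 of these 3 treatments of it.

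**Figure D4:**
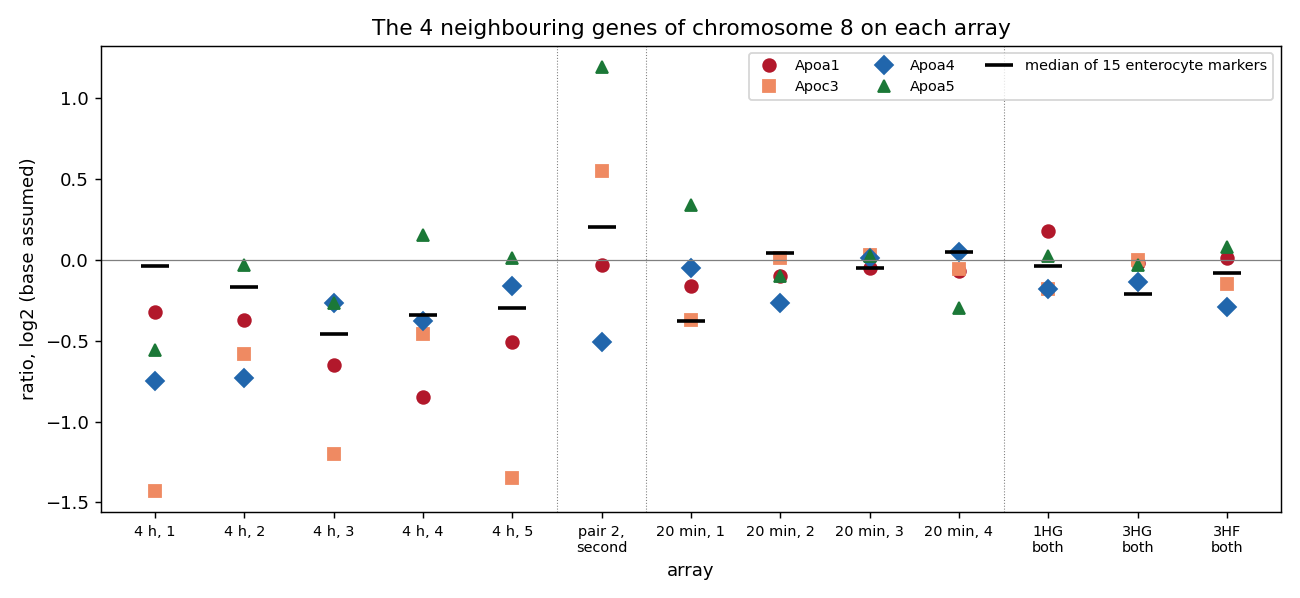
Ratio on the log2 scale (base assumed) of the neighbouring genes Apoa1, Apoc3, Apoa4 and Apoa5 on each array, with the second array of pair 2 set apart and the last 3 arrays carrying the same RNA in both channels; the black dash is the median of 15 enterocyte marker genes. On arrays 1 to 5 Apoc3 lies between -1.43 and -0.46, and on the second array of pair 2 at 0.55.

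Enterocyte marker genes had lower ratios on some of these arrays too. Of 15 measured, 8 lay below 0 at 4 h against the same-RNA arrays (median -0.04), beside 51.5% of all features. At 4 h against 20 min 11 of the 15 lay below 0 (median -0.22), beside 52% of all features. The median of the markers was -0.04, -0.17, -0.46, -0.34 and -0.30 on arrays 1 to 5. At 20 min it was -0.38, 0.04, -0.05 and 0.05, with the lowest value on replicate 1. On the same-RNA arrays it was between -0.21 and -0.04, and on the second array of pair 2 it was 0.20. At 4 h the median of the markers was lowest on array 3 and nearest to 0 on array 1, where Apoc3 (-1.43) and Apoa4 (-0.75) were lowest. Apoa1 was at -0.32, -0.37, -0.65, -0.85 and -0.51 on arrays 1 to 5, nearest to 0 on array 1 and lowest on array 4. At 20 min Apoc3, Apoa1 and the markers were lowest on replicate 1, for Apoa1 at -0.16 beside -0.10 on replicate 2. How far these orders go together was not tested. Slc2a5 was the 1 marker called at 4 h (1.69 ± 0.16, SE, limma adjusted p = 0.000397), beside 0.0641% of all features. As the side of HF was read from Slc2a5, its direction is no result. Fabp2, which binds fatty acids in enterocytes, differed by -0.56 ± 0.20 (adjusted p = 0.394). The part of the enterocyte share in the apolipoprotein values was not tested, and in whole tissue fewer cells of a type and less RNA per cell cannot be told apart.

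Of 23 hepatocyte markers measured, 12 lay below 0 and 11 above at 4 h (median 0.00), and the list's median lay between -0.09 and 0.05 on the arrays at 4 h, between -0.11 and 0.08 at 20 min and between -0.03 and 0.00 on the same-RNA arrays. Of 14 markers of exocrine pancreas, 11 lay below 0 at 4 h (median -0.12) and 11 at 20 min (median -0.10). Of 16 markers of smooth muscle and stroma, 11 lay below 0 at 4 h (median -0.11) and 9 at 20 min (median -0.02). Medians at 4 h were 0.01 for macrophages and other leukocytes (13 genes), 0.01 for enteric neurons and glia (15), -0.02 for endothelium, blood and fat (14) and -0.08 for goblet, Paneth and enteroendocrine cells (18). None of the genes on these 7 lists was called in any comparison. Over all features 0.0641% were called at 4 h, 0.0427% at 20 min and 0.598% at 4 h against 20 min. Below 0 lay 51.5% of all features at 4 h and 49.4% at 20 min. The part of these cell types in the results was not tested.

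Genes that work with the apolipoproteins are given from lists of the pathway. Of 20 measured genes of fat absorption and chylomicron assembly, 15 lay below 0 at 4 h (median -0.11), 7 at 20 min (median 0.05) and 16 at 4 h against 20 min (median -0.14). None of the 20 was called in any comparison in limma's test, beside 0.0641%, 0.0427% and 0.598% of all features. At an unadjusted p below 0.05 were 6, 1 and 4, beside 9.97%, 5.21% and 13.5% of all features. Over all features 51.5%, 49.4% and 52% lay below 0. Those with the smallest p at 4 h were Fabp2, given above, Clps (-0.78 ± 0.29, SE), a pancreatic colipase whose same-RNA arrays reached 1.80 while its arrays at 4 h lay between -0.30 and 0.23, Pnliprp1 (-0.50 ± 0.20), a pancreatic lipase-related protein, and Dgat1 (0.37 ± 0.15), which makes triglyceride, with adjusted p between 0.394 and 0.448. Dgat1 thus lay on the opposite side to Apoa1 and Apoc3.

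Of 10 measured lipoprotein receptor genes 4 lay below 0 and 6 above at 4 h (median 0.08). First by p were Olr1 (0.24), a receptor for oxidised lipoprotein, and Sorl1 (0.21). Next were Cubn (-0.99 ± 0.81, SE), which binds Apoa1, and Lrpap1 (0.19), a chaperone of these receptors. Of 5 plasma lipase genes Lipa, the lysosomal lipase, differed by -0.50 ± 0.15 at 4 h (adjusted p = 0.341), and Lpl, the lipase that Apoc3 restrains, by 0.09 ± 0.14 (adjusted p = 0.849). At 20 min Lpl differed by -0.34 ± 0.15 (adjusted p = 0.801). Of 4 other proteins of lipoproteins, Pon1 differed by 0.23, Clu by 0.19, Lcat by 0.10 and Apom by -0.06 at 4 h. In limma's test 0 were called and 0 had an unadjusted p below 0.05, beside 0.0641% and 9.97% of all features. At 20 min 3 of the 4 lay below 0 (median -0.25). At 4 h against 20 min all 4 lay above 0 (median 0.31). There 1 had an unadjusted p below 0.05, Pon1 (0.65 ± 0.18, SE; adjusted p = 0.139), beside 13.5% of all features.

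Of 32 measured genes for transcription factors known to act on apolipoprotein genes, 11 lay below 0 and 21 above at 4 h (median 0.05). In limma's test 0 were called and 5 had an unadjusted p below 0.05, beside 0.0641% and 9.97% of all features. Rarb, a retinoic acid receptor, differed by 0.59 ± 0.16 (SE; adjusted p = 0.241) at 4 h and by 0.55 ± 0.16 at 20 min. Pparg, a fatty acid sensing receptor, differed by 0.40 ± 0.13 and 0.44 ± 0.14. Cdx2, a factor of intestinal identity, differed by -0.33 ± 0.12 (adjusted p = 0.409) at 4 h and by 0.03 ± 0.13 at 20 min, and Cebpa by 0.29 ± 0.12 and -0.02 ± 0.13. Both times are set against the same 3 same-RNA arrays. The differences between the times had adjusted p between 0.195 (Cdx2) and 0.948 (Pparg).

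The genes whose 9 ratios at 4 h and 20 min lay nearest to those of Apoa1, by the root mean square of the differences, were Psmd10 (0.14), Cdh17 (0.14), Nr1i3 (0.15), Fam162a (0.16) and Azin1 (0.16), where the median over 4155 genes was 0.488. Cdh17, the cadherin of liver and intestine, had means of -0.58 at 4 h and -0.25 at 20 min. It is 1 of the 15 enterocyte markers measured, of which 8 lay below 0 and 7 above at 4 h against the same-RNA arrays. Nearest to Apoc3 were Cstb (0.22), an inhibitor of cysteine proteases, Ccr7 (0.33), a chemokine receptor, S100a6 (0.34), Ctsb (0.39), the protease cathepsin B, and Tgfb2 (0.39), where the median was 0.845. Cstb had means of -0.81 and -0.04. Among the apolipoprotein genes Apoa4 was nearest to Apoa1 (0.31; rank 209 of 4155), and Apoa1 (0.53; rank 57) and then Apoa4 (0.57; rank 106) to Apoc3. The measure takes in the size of the ratio as well as its pattern. It uses the ratios without the same-RNA arrays, so the dye effect of each probe stays in.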

How the data were processed

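The values are 1 deposited log ratio per probe and array, read as log2, for 4952 probes on 14 arrays with none missing. The sources used here do not give how the authors corrected background or normalized, nor log base, dyes and direction, and intensities were not analysed here. Column medians as deposited lay between -0.0713 and 0.0241. Each array was centred on its median, and probes of 1 symbol were averaged, giving 4682 features. Of the probes 4426 have 1 symbol in the platform annotation, 2 several and 524 none, and the reference table held 4371 by identifier.

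A single limma 3.58.1 fit (R 4.3.3; lmFit, eBayes; 9 residual degrees of freedom) took 12 arrays in 3 groups, with Benjamini-Hochberg adjustment over all features and calls below 0.05. Steps were tested on simulated data. Every gene of the rule is reported, with up to 4 genes per list by smallest p at 4 h and the 5 genes nearest to Apoa1 and to Apoc3. Genes, lists and the treatment of the second array of pair 2 were chosen with earlier results of these data known. Same-numbered arrays at 4 h and 20 min deviated together with r of -0.0652, 0.16, -0.0304 and -0.0171 across features, and the fit did not pair them. Arrays with unlike numbers were not correlated in this way, so these values cannot decide whether the numbers pair the arrays.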

Additional observations from a re-analysis of the deposited data

Results flagged for a closer look

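On arrays outside the tests, 7 ratios of apolipoprotein genes were further from 0 than on any of the 3 same-RNA arrays. On the second array of pair 2 these were Apoa5 at 1.19, Apoh at 0.85, Apoc3 at 0.55, Apoa4 at -0.51, Apoa2 at -0.46 and Apob at 0.23. The SD over all probes of that array was 0.824, so wide ratios were common on it. On the primer array Apoa1 was at 0.26, where the same-RNA arrays gave 0.18, -0.02 and 0.01.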

How the results depend on the processing

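Apoa1, Apoa4, Apoa5, Apoc1 and Apoc3 kept a negative sign, and Apoh a positive one, at 4 h against the same-RNA arrays under all 25 alternatives, over which the adjusted p was between 0.000485 and 0.55 for Apoa1 and between 0.000176 and 0.608 for Apoc3. Apob did so too, except that with its probes tested singly, where the probe with the smallest p stands for the gene (0.42), another of its 3 probes was at -0.23. Set against 0 with no same-RNA arrays, so that dye effects stay in, 820 features in place of 3 passed at 4 h, with 4 of the 10 genes (Apoa1, adjusted p = 0.000485; Apoa4, 0.00454; Apoc3, 0.000176; Apoh, 0.0435). At 20 min 442 in place of 2 passed, with 1 of the 10 (Apoh, 0.00203). There Apod (0.07) and Apoe (0.02) at 4 h and Apoa4 (-0.06) and Apoc3 (-0.10) at 20 min turned sign.

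The planned random block for the second array of pair 2 could not be estimated from 1 pair, so it was entered as a dye swap with each array of the pair at weight 0.5, a choice made after seeing the data, as was taking exact zeros as missing. With the swap, features called were 61, 0 and 13 at 4 h, at 20 min and at 4 h against 20 min (3, 2 and 28 without), 1 of the 10 genes was called at 4 h, the median of the 10 at 4 h was -0.06, and Apoa2 (0.04) and Apod (0.00) at 4 h and Apob (-0.03) at 20 min turned sign. With that array averaged in as deposited 0, 0 and 0 features were called, and with its sign turned 0 at 20 min and 18 at 4 h against 20 min. Arrays scaled to 1 spread gave 0 at 20 min and 16 at 4 h against 20 min, and the 2 groups compared alone gave 0 at 20 min. The cause of these changes was not tested.

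Whether the pair numbers pair arrays at 4 h and 20 min was not settled (see the correlations given with the processing). With the number as a replicate block, 0 features at 20 min and 12 at 4 h against 20 min were called, the median at 20 min was -0.07, and Apod (0.05) at 4 h and Apoa2 (0.00) and Apoc3 (-0.18) at 20 min turned sign.

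Leaving out 1 array at a time, features called were 2 to 5, 0 to 4 and 4 to 43 in the 3 comparisons. At 4 h Apoh ran from 0.07 (without replicate 3) to 0.44, Apoe from -0.26 to -0.05 (without the same-RNA array 1HG), Apoc1 from -0.37 to -0.11 (without 3HG) and Apoa2 from -0.16 to -0.01 (without replicate 3). Genes of the 10 called were 0, 0 and 0 to 1. The medians over the 10 were -0.19 to -0.15, -0.04 to 0.00 and -0.18 to -0.07. At 20 min Apoa5 ran from -0.15 to 0.07, Apob from -0.05 to 0.10 and Apoc3 from -0.03 to 0.10. At 4 h against 20 min Apod ran from -0.04 to 0.21 and Apoe from -0.04 to 0.19. With 3 same-RNA arrays, which differed in spread, small ratios could not be told from 0.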
